A study of Homo sapiens with 11 samples.

Results

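The glucocorticoid receptor (GR) and the protein modifiers SUMO-2 and SUMO-3 were compared on the chromatin of a single cell line, HEK293 cells stably expressing wild-type GR. Of the 11 samples of the series, 4 entered the comparison, chosen by their titles: 2 GR libraries and 2 SUMO-2/3 libraries of the wild-type line. They gave 11259 GR sites and 12109 SUMO-2/3 sites, 23368 in all. HEK293 is a line derived from human embryonic kidney, and the isogenic lines were made with the Flp-In system, which places a transgene at a prepared genomic position. Before immunoprecipitation the cells behind all 4 libraries spent 72 h without steroid and then 1 h with dexamethasone, a synthetic glucocorticoid, at 100 nM. Untreated cells were not analysed here. The labels name 1 wild-type line, so the libraries describe 1 cell population, and whether the biological duplicates came from separate cultures is not stated. A GR library of the control line (FRT), which has no GR transgene and received the same treatment, gave 1016 sites and served as the background. Its input and IgG libraries were not analysed here.

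GR is a nuclear receptor that resides largely in the cytoplasm until a glucocorticoid binds it, after which it enters the nucleus, binds DNA and raises or lowers the transcription of nearby genes. SUMO proteins are small modifiers joined to lysines of other proteins, among them many transcription factors, cofactors and chromatin proteins, and GR itself is a target. SUMOylation of a transcription factor is most often linked to restraint of its activity. The SUMO-2/3 antibody reads the modifier, not its carrier, so a SUMO-2/3 site at a GR site does not show which protein was modified.

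Chromatin immunoprecipitation followed by sequencing gives, for each site, the number of sequenced tags in the peak, a fold enrichment over the peak caller's background, the width of the peak and its summit, the position of the highest signal. The 2 libraries of an antibody share the same listed positions, so the number of sites is 1 value per antibody without replicate error. Tags, fold, summit and the length of the peak called in each library (its own peak) differ between the libraries. Tags in listed peaks summed to 1847722 and 3320534 in GR libraries 1 and 2, and to 2025910 and 3377919 in SUMO-2/3 libraries 1 and 2. Total sequencing depth is unknown. Tag levels are therefore compared by rank or within a library, and intervals on shares (95%, exact Clopper-Pearson) cover counting error over sites only.

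Strong GR sites almost always overlapped a listed SUMO-2/3 site. Strong SUMO-2/3 sites were only slightly more likely than weak ones to overlap a listed GR site. Sites were matched when they shared at least 1 bp, and matched sites are called co-bound. A site without a partner has no listed partner, and signal below the limits of the lists (51 tags, fold of 8.01) is not counted. At co-bound sites SUMO-2/3 tags were fewer where GR tags were fewer. The part of these limits in the shares by strength was not tested. By this rule 4207 GR sites (37.4% of the list) and 4153 SUMO-2/3 sites (34.3% of theirs) were co-bound, and 7052 and 7956 were not. When each list was ranked by fold enrichment (mean rank over its 2 libraries) and divided into 20 equal parts, the share of GR sites with SUMO-2/3 was 98.2% (96.8 to 99.1) in the highest part and 6.93% (4.97 to 9.35) in the lowest. For SUMO-2/3 sites with GR, the same shares were 37.5% and 26.4%. All of the 100 best GR sites had SUMO-2/3 (interval 96.4 to 100), as did 493 of the best 500 and 955 of the best 1000. Of the SUMO-2/3 sites, 35 of the best 100, 187 of the best 500 and 386 of the best 1000 had GR. The best GR site without SUMO-2/3 stood at rank 340, whereas the best SUMO-2/3 site without GR stood at rank 2.

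**Figure D1:**
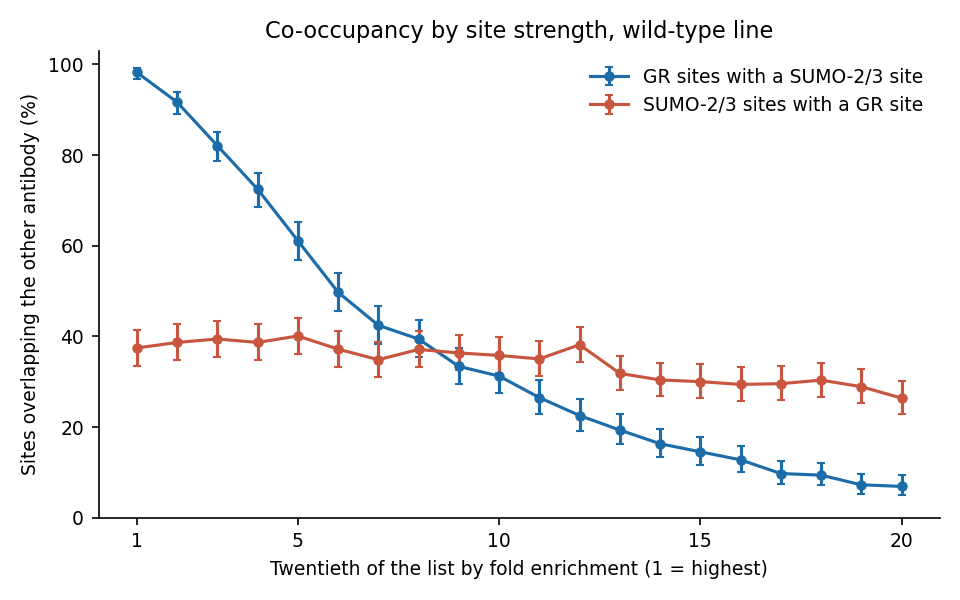
Share of sites overlapping a site of the other antibody (percent, vertical axis) against strength, in 20 equal parts of each list ranked by fold enrichment (horizontal axis, 1 the highest), with 95% Clopper-Pearson intervals over sites as bars. GR sites run from 98.2% to 6.93%, and SUMO-2/3 sites from 37.5% to 26.4%.

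Median values of the classes showed the same asymmetry. GR sites with SUMO-2/3 had a median of 179 tags in library 1 and 332 in library 2, against 110 and 197 at GR sites without it. Their median fold enrichments were 22.6 and 19.7, against 13.5 and 11.5. SUMO-2/3 sites with GR had 138 and 228 tags, against 122 and 199 without GR, and fold enrichments of 11.7 and 16.6, against 11.1 and 15.5. Both libraries of each antibody thus had the higher medians at co-bound sites, by a wide margin for GR and a narrow one for SUMO-2/3.

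The 5 best co-bound sites were chosen by the mean of their GR and SUMO-2/3 fold ranks. High fold enrichments of both antibodies there follow from that choice. The best, on chromosome 20 from 58386884 to 58388066 (hg19, as all positions here), had 520 and 829 GR tags with fold enrichments of 75.48 and 45.21. Its SUMO-2/3 site, from 58386837 to 58388171, had 556 and 782 tags with fold enrichments of 65.63 and 69.19, and it ranked 4 in both lists. The GR site lay wholly inside the SUMO-2/3 site. The next, a GR site on chromosome 5 from 1416146 to 1417969, had 784 and 1026 GR tags and 900 and 975 SUMO-2/3 tags. On chromosome 1, the GR site from 11628781 to 11630328 had 473 and 701 GR tags and 458 and 640 SUMO-2/3 tags. In all 4 libraries the tag counts at these sites were above the medians of the classes. Fold enrichment chose the sites, so this is no separate result. The remaining sites of the 5 best lay on chromosome 5 from 6519159 to 6520447 and on chromosome 2 from 20738691 to 20740412. Their GR and SUMO-2/3 summits, measured in library 1 of both antibodies, were 123 bp and 6 bp apart. None of these 5 GR sites overlapped a site of the control line. Over the whole list 843 of 11259 GR sites did, and 379 of 2252 in the highest fold quintile. With shares this low, 5 sites are too few for a comparison.

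GR sites of high rank without SUMO-2/3 were few and lay at very different distances from the nearest SUMO-2/3 site. The best, on chromosome 10 from 34037594 to 34039311 (383 and 513 tags), had one 891 bp away. The second, on chromosome 2 from 177800650 to 177801683 (282 and 314 tags), had none within 556953 bp. The others lay on chromosome 9 from 27495516 to 27496540 (295 and 357 tags, gap 42522 bp), on chromosome 6 from 149381915 to 149383866 (365 and 635 tags, gap 35532 bp) and on chromosome 17 from 5336429 to 5337478 (197 and 391 tags, gap 33774 bp). These 5 ranked between 340 and 422, and those on chromosomes 9 and 6 were also sites of the control line. So were 379 of the 2252 GR sites in the highest fold quintile, and 5 sites are too few for a comparison.

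The 5 best SUMO-2/3 sites without GR lay on chromosomes 17 and 19. The best, on chromosome 19 from 10526300 to 10528241, had 551 and 745 tags, fold enrichments of 71.88 and 70.68, and a GR site 4085 bp away. A second on chromosome 19, from 4723425 to 4726217, had 1026 and 1268 tags with the nearest GR site 114627 bp away. A narrow one of 898 bp on the same chromosome, from 6291723 to 6292620, had 352 and 416 tags and a gap of 333330 bp. On chromosome 17 the sites ran from 19409908 to 19412785 (614 and 820 tags, gap 9010 bp) and from 17494203 to 17495935 (504 and 713 tags, gap 14537 bp). Their fold enrichments, 60.94 to 72.32 in either library, reached those of the best co-bound sites.

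The overlap was mostly one site to one site and nearly complete. The 4234 overlapping pairs included 4037 in which each site had a single partner. Among those, the GR site lay inside the SUMO-2/3 site in 1761 (43.6%), the SUMO-2/3 site inside the GR site in 614 (15.2%), and neither in 1662 (41.2%). In 3835 pairs the overlap covered at least 50% of both sites, and in 29 it was shorter than 100 bp. A SUMO-2/3 site overlapped several GR sites in 76 cases, 3 at most, and a GR site overlapped several SUMO-2/3 sites in 25.

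At co-bound sites the GR and SUMO-2/3 summits lay a median of 19.5 bp apart (quartiles 9 and 37). The summit is counted from the start of the library's own peak, so it can be placed only where that peak has exactly the listed length, which held for 1250 of the 4234 pairs. Each of these was measured in a single pair of libraries. The median distance was 23 bp between GR library 1 and SUMO-2/3 library 1 (n = 545 site pairs), 18 bp between GR 1 and SUMO-2/3 2 (n = 416), 19 bp between GR 2 and SUMO-2/3 1 (n = 122) and 15 bp between GR 2 and SUMO-2/3 2 (n = 167). Summits lay within 50 bp of each other in 77.4%, 85.6%, 86.9% and 91.6% of them, in that order, and in 83.0% of all 1250 (80.8 to 85.0). Signed medians along the chromosome ran from -2.5 to 2 bp. Sites were not oriented by motif or gene, so a preferred side relative to these was not tested. Measured pairs were not a random draw, since those using GR library 2 had medians of 264.5 and 246 GR tags, against 333 at all co-bound pairs.

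The median distance between the antibodies was of the size seen between libraries of 1 antibody. No site had a usable summit in both libraries of its list, so own peaks up to 10 bp longer than the site were admitted for this comparison, which leaves each summit uncertain by that much. The 2 GR libraries then lay a median of 11 bp apart (n = 75 sites, between 7 and 16 bp over the possible summit positions), and the 2 SUMO-2/3 libraries 22 bp (n = 48, between 17.5 and 25 bp). With exact own peaks, GR summits of the control line lay a median of 15 and 16.5 bp from those of GR libraries 1 and 2 (n = 352 and 130), and 20 and 16 bp from those of SUMO-2/3 libraries 1 and 2 (n = 124 and 105). The 4 GR to SUMO-2/3 medians, 15 to 23 bp, fell within the span from 11 to 22 bp of the duplicates except for that of GR 1 and SUMO-2/3 1, which was 1 bp above it. Within 50 bp lay 90.7% of the GR duplicates and 83.3% of the SUMO-2/3 duplicates, at the upper bound of their distance. The share for GR 1 and SUMO-2/3 1, the pair with the most measured sites, was below both at 77.4%, and the other 3 pairs lay between 85.6% and 91.6%.

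**Figure D2:**
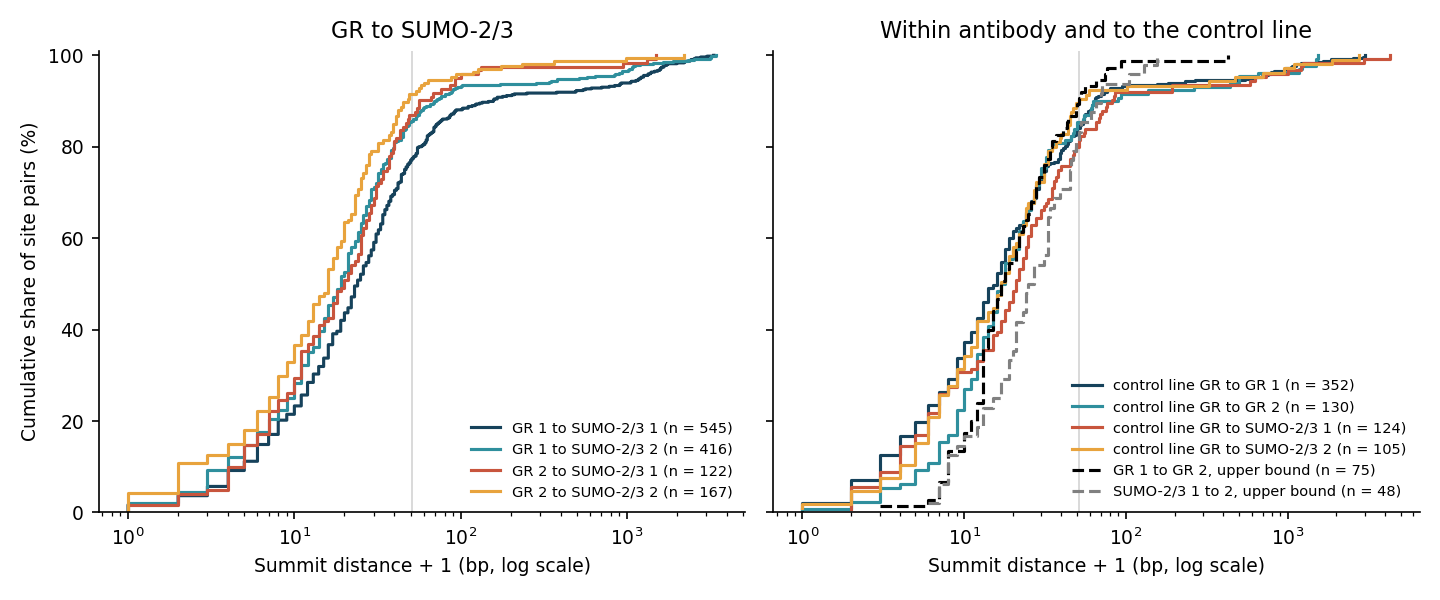
Cumulative share of site pairs (percent, vertical axis) against summit distance plus 1 (bp, log scale), for the 4 pairs of GR and SUMO-2/3 libraries on the left, and on the right for control-line GR against each library and, dashed, for the duplicates at the upper bound of their distance. The grey line marks 50 bp, within which 77.4% to 91.6% of GR to SUMO-2/3 distances and 81.5% to 90.5% of control-line distances fell.

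Summits drew apart as GR weakened. From the highest to the lowest quintile of the GR list by fold, the median distance was 16, 20, 24, 40 and 63 bp (n = 599, 292, 200, 109 and 50), and the share within 50 bp went from 92.0% to 44.0%. Over quintiles of SUMO-2/3 fold the medians ran only from 17 to 24 bp. The control line gave a smaller change, its GR summits lying 13, 16, 15.5, 16 and 21.5 bp from wild-type GR summits over the same GR quintiles (n = 231 in the highest and 32 in the lowest). Peak length moved with the distance as well: the median was 15 bp where the longer own peak was at most 1000 bp and 35 bp where it exceeded 2400 bp. Restricted to own peaks of at most 1200 bp, the GR quintiles had medians of 16, 16, 17, 23 and 33 bp (the last from n = 23), so the order was kept with a smaller span. The part of peak length in the rest of the span was not tested.

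Summits over 500 bp apart made up 69 of the 1250 measured pairs, and in 64 of them the longer own peak exceeded 1600 bp. The longer own peak had a median of 2882 bp in these and 1201 bp in the other pairs. They formed 1.67% of measured pairs in the highest GR quintile and 30.0% in the lowest. An example was the overlap on chromosome 1 of a GR site from 228914690 to 228918001 with a SUMO-2/3 site from 228912495 to 228914707. The sites met only at their ends, and their summits in GR library 1 and SUMO-2/3 library 2 were 3172 bp apart. Pooled over strength, distances of this size were about as frequent for GR between the control and wild-type lines. GR summits of the control line lay over 500 bp from those of GR libraries 1 and 2 at 5.40% and 5.38% of measured sites. By GR quintile the likeness did not hold. From the highest to the lowest, the control-line shares were 4.33%, 8.91%, 2.70%, 4.55% and 9.38% (n = 32 in the lowest).

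More GR tags went with more SUMO-2/3 tags at co-bound sites. Across the 4234 pairs, the Spearman correlation of GR with SUMO-2/3 tags was 0.650 for GR 1 with SUMO-2/3 1, 0.589 for GR 1 with SUMO-2/3 2, 0.786 for GR 2 with SUMO-2/3 1 and 0.795 for GR 2 with SUMO-2/3 2. Sites of a library share its depth and tags grow with peak length, so these are descriptions and carry no p-value. The duplicates correlated at 0.770 for GR (n = 4207 sites) and 0.876 for SUMO-2/3 (n = 4153) over the same sites. By tags, GR library 2 was thus ranked as much like either SUMO-2/3 library as like GR library 1. Per kb of own peak this was no longer so: the 4 values across antibodies were 0.573 to 0.610, below 0.743 between the GR libraries and 0.801 between the SUMO-2/3 libraries. For fold enrichment they were 0.430 to 0.581, against 0.747 and 0.833. Given both own peak lengths, the partial rank correlation of tags was 0.554, 0.530, 0.642 and 0.662 for the 4 pairs, in the order above.

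In levels, SUMO-2/3 tags rose with GR tags, over a smaller span in groups chosen by GR tags. Co-bound pairs were divided into 10 equal groups by GR tags. From the lowest to the highest group the medians went from 77.5 to 484 tags in GR library 1 and from 159.5 to 841 in GR library 2, which is 6.25 and 5.27 times. In the same groups SUMO-2/3 medians went from 80.5 to 355 tags in library 1 and from 128 to 560.5 in library 2, 4.41 and 4.38 times. GR tags chose the groups, so their own span is wider by construction, and the steepness of the antibodies cannot be compared this way. Over the same groups the median GR site widened from 827.5 to 2027.5 bp and the median SUMO-2/3 site from 932 to 2071 bp. Tags grow with peak length, so grouping by GR tags itself picks wide GR sites.

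**Figure D3:**
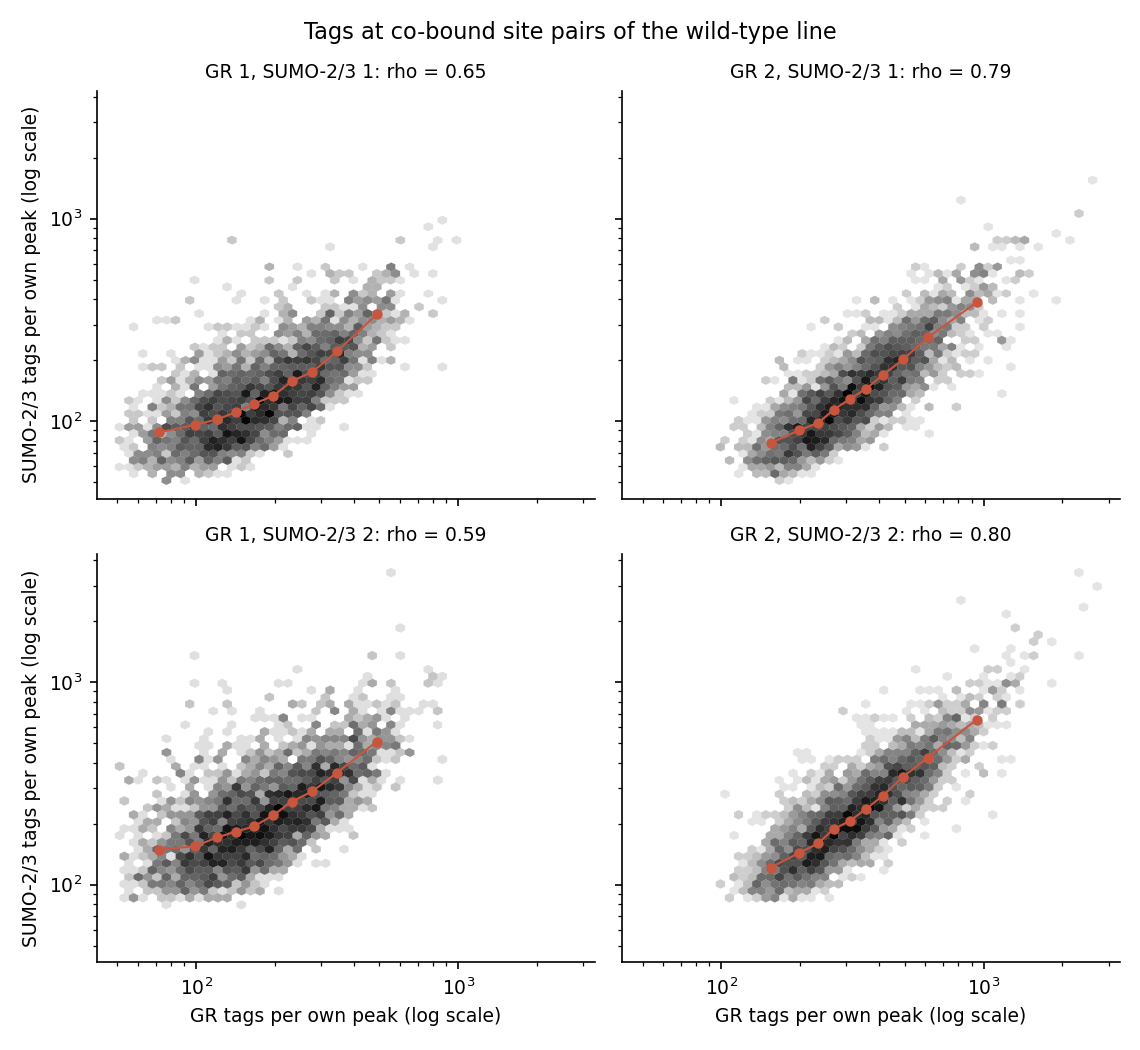
SUMO-2/3 tags per own peak (vertical axis, log scale) against GR tags per own peak (horizontal axis, log scale) at the 4234 co-bound site pairs, with 1 panel for each pair of libraries, darker cells holding more pairs and red points the medians of 10 equal groups by GR tags. Spearman correlations run from 0.589 to 0.795, and both panels with GR library 2 show the tighter relation.

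The balance between the antibodies also differed from site to site. It was taken as the log2 ratio of SUMO-2/3 to GR tags, averaged over libraries, which has no fixed zero because the depths are unknown. Computed in libraries 1 of both antibodies and again in libraries 2, it correlated at 0.554 across pairs (Spearman, n = 4234), and at 0.372 with the libraries crossed. By fold enrichment the values were 0.655 and 0.533. Between the lowest and the highest quintile of this balance, the median SUMO-2/3 site width went from 1021 to 1637 bp, while that of GR sites went from 1115 to 972 bp. SUMO-2/3 sites over 2000 bp wide made up 3.78% of the lowest quintile and 37.0% of the highest. Pairs on chromosome 19 numbered 9 in the lowest and 48 in the highest. Tags grow with peak length, so the sorting by tags itself places wide SUMO-2/3 sites and narrow GR sites at the high end. With tags per kb of own peak the SUMO-2/3 width went from 1044 to 1237 bp, and that of GR sites from 999 to 1040 bp, the other way round. SUMO-2/3 sites over 2000 bp then made up 9.68% and 22.0%, and pairs on chromosome 19 numbered 17 and 32.

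The 3 pairs with the highest balance joined SUMO-2/3 sites of 3936 to 12194 bp with GR sites of 756 to 931 bp, as listed. On chromosome 17 a GR site from 37311753 to 37312508 (104 and 184 tags) lay in a SUMO-2/3 site from 37308588 to 37312523 (1101 and 1582 tags), with a balance of 3.25 (3.40 in libraries 1 and 3.10 in libraries 2). On chromosome 8 the GR site from 37559512 to 37560442 (71 and 847 tags) had a balance of 2.84, which was 4.12 in libraries 1 and 1.57 in libraries 2. The 847 tags of GR library 2 come from an own peak of 6934 bp that is listed for another site too. On chromosome 19 the GR site from 51013373 to 51014138 (55 and 165 tags) had a balance of 2.83. In the last 2 pairs the summits were 1344 and 902 bp apart. At the other end, a GR site on chromosome 20 from 52443723 to 52447439 (898 and 1283 tags) overlapped SUMO-2/3 sites of 1160 and 108 bp, with balances of -2.22 and -1.95. Library 1 lists the same 187 tags for both of these SUMO-2/3 sites, so they were 1 peak there. The chromosome 1 overlap with distant summits described above came next, at -1.88. That value was set mainly by libraries 2, at -2.76, where the own GR peak was 11705 bp long and listed for another site too. Libraries 1 had 589 GR tags and 294 SUMO-2/3 tags there, a less uneven balance.

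SUMO-2/3 sites were wider than GR sites, though the size of the difference depended on the library. The median listed width was 1080 bp for SUMO-2/3 and 972 bp for GR. Own peaks had medians of 1032 and 1194 bp in GR libraries 1 and 2 and of 1195 and 1273 bp in SUMO-2/3 libraries 1 and 2. Both SUMO-2/3 medians exceeded both GR medians, the closest by 1 bp, with an exact two-sided permutation p = 0.333 over libraries, the smallest that 2 against 2 allows, so the design cannot reach 0.05. The difference of the medians was 163 bp with libraries 1 alone and 79 bp with libraries 2 alone. At co-bound sites the medians overlapped, at 1087 and 1322 bp for GR and 1237 and 1323 bp for SUMO-2/3 (exact permutation p = 0.667).

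Within single pairs the wider site was more often the SUMO-2/3 site. It was the wider in 2666 of the 4037 one-to-one pairs (66.0%), by a median of 73 bp over all of them. By own peaks it was the longer in 69.9% and 72.2% of pairs against GR library 1, but in 48.3% and 53.3% against GR library 2. The direction within pairs therefore rested on GR library 1. By the median, co-bound sites were wider than the rest in both lists, at 1029 against 939 bp for GR and 1119 against 1057 bp for SUMO-2/3. The upper quartile of SUMO-2/3 sites went the other way, at 1499 against 1539 bp. By own peaks it was 1780 against 1739 bp in SUMO-2/3 library 1 and 1925 against 1972 bp in library 2. Co-bound GR sites also had higher fold, and the part of strength in their width was not tested. For GR the width difference of 90 bp was 86 bp by the own peaks of library 1 and 205 bp by those of library 2.

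**Figure D4:**
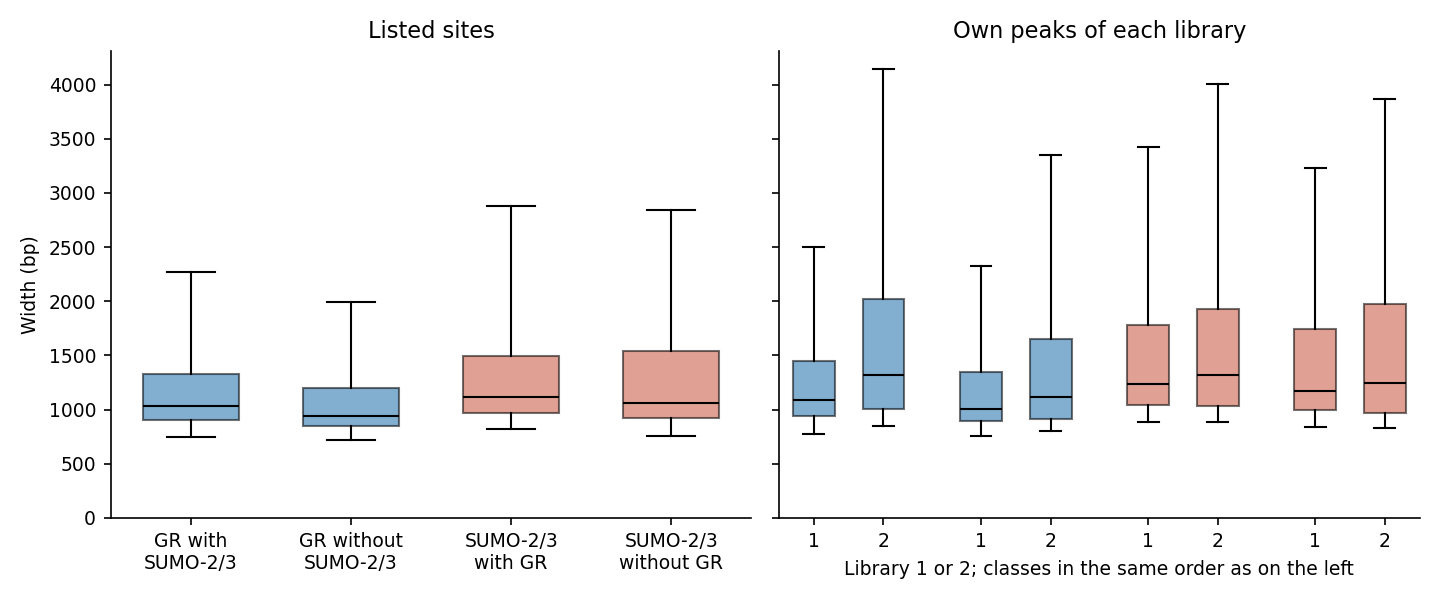
Widths in bp of GR sites with and without SUMO-2/3 (blue) and of SUMO-2/3 sites with and without GR (red), by listed site on the left and by each library's own peak on the right. Boxes span the quartiles with the median as a line and whiskers reach the 5th and 95th percentiles, with own peaks of GR library 2 longer than those of library 1 in both classes.

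By listed width, very wide sites were mainly SUMO-2/3 sites, and width had a different relation to co-binding in each list. Sites over 2000 bp numbered 689 (6.12%) for GR and 1618 (13.4%) for SUMO-2/3, and those over 5000 bp 12 and 93. By own peaks the difference depended on the library. Upper quartiles were 1386 and 1796.5 bp in GR libraries 1 and 2, and 1758 and 1954 bp in SUMO-2/3 libraries 1 and 2. GR library 2 was thus above SUMO-2/3 library 1. From the narrowest to the widest quintile, GR sites had SUMO-2/3 in 27.2%, 28.3%, 41.2%, 46.2% and 44.0%. SUMO-2/3 sites had GR in 24.8%, 32.1%, 42.3%, 39.2% and 33.2%, highest in the middle. The widest SUMO-2/3 site, on chromosome 8 from 37550065 to 37562258 (12194 bp), held 2 GR sites. The next widest, on chromosome 17 from 8020753 to 8032273 (3015 and 4089 tags) and on chromosome 19 from 5688932 to 5700296 (1309 and 2714 tags), held none. The widest GR sites, on chromosome 1 from 224019217 to 224029734 (10518 bp) and on chromosome 17 from 43650725 to 43660212 and from 44192601 to 44200502, had no SUMO-2/3.

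Most sites without a partner had no site of the other antibody within 10000 bp. The gaps were not set against a chance placement of sites, so they do not show separation. The median gap from a GR site without SUMO-2/3 to the nearest SUMO-2/3 site was 57139.5 bp (quartiles 16239 and 164986), and 65309 bp from a SUMO-2/3 site without GR to the nearest GR site. Only 244 such GR sites (3.46%) and 154 such SUMO-2/3 sites (1.94%) had the other antibody within 1000 bp. Within 10000 bp the shares were 18.1% and 13.3%, and within 100000 bp 63.8% and 62.5%. Co-bound sites had a further site of the other antibody, one not overlapping them, much closer, at a median of 24921 bp for GR and 22399 bp for SUMO-2/3. Within 10000 bp such a site lay in 31.2% and 34.5%. Co-bound sites were also closer to the next site of their own antibody, at medians of 20530 against 32685 bp for GR and 24697 against 30215 bp for SUMO-2/3. Crowding of sites of either antibody thus moved with co-binding, and its part in the gaps was not tested.

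**Figure D5:**
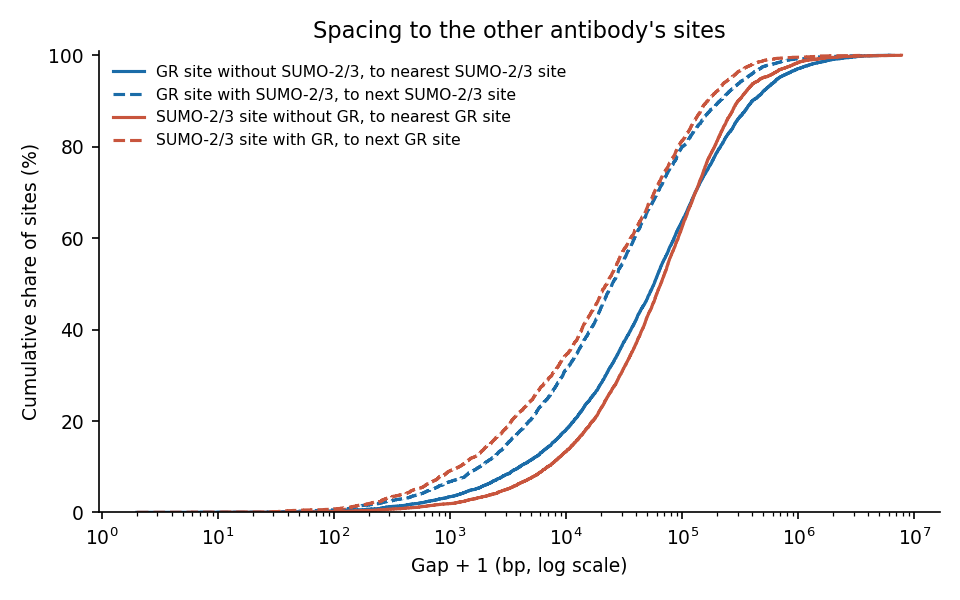
Cumulative share of sites (percent, vertical axis) against the gap plus 1 (bp, log scale) to the nearest site of the other antibody that does not overlap them, for sites without a partner (solid) and co-bound sites (dashed). Medians are 57139.5 and 65309 bp for GR and SUMO-2/3 sites without a partner, and 24921 and 22399 bp for co-bound ones.

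Few of the unmatched sites could be near misses by peak edges, while signal below the limits of the lists could not be counted. The own peak of a library can reach beyond the listed site, and counting every gap that own peaks could bridge added 226 GR sites (3.20% of those without SUMO-2/3) and 182 SUMO-2/3 sites (2.29% of those without GR). This would bring the co-bound shares to at most 39.4% and 35.8%.

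The balance of the lists differed by chromosome. SUMO-2/3 sites outnumbered GR sites on 11 of 23 chromosomes, with 4.94 SUMO-2/3 sites for each GR site on chromosome 19 (890 and 180 sites) and 0.441 on chromosome 18 (90 and 204 sites). The share of GR sites with SUMO-2/3 was 62.2% (54.7 to 69.3) on chromosome 19, 53.3% on chromosome 22, 52.7% on chromosome 16, 26.0% on chromosome 18 and 24.1% on chromosome X. The share of SUMO-2/3 sites with GR was 12.6% on chromosome 19 and 57.8% on chromosome 18. Both shares contain the counts of either list, so their opposite order follows in part from the site numbers. GR sites without SUMO-2/3 on chromosome 19 lay a median of 23981 bp from the nearest SUMO-2/3 site, against 57612 bp elsewhere. SUMO-2/3 sites without GR there lay 108186 bp from the nearest GR site, against 61391 bp elsewhere. These chromosomes were chosen after their values were seen.

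The control line shows at which of these places GR was listed without the transgene. It is 1 library without a replicate, so a place absent from its list may still have held GR. Of its 1016 GR sites, 436 (42.9%) overlapped a SUMO-2/3 site of the wild-type line. A control-line site was present at 10.4% of wild-type GR sites with SUMO-2/3 (436 of 4207) and at 5.77% of those without (407 of 7052). Among GR sites of like strength this order did not hold. Within GR fold quintiles from the highest to the lowest, sites shared with the control line had SUMO-2/3 in 81.3%, 44.5%, 21.5%, 15.8% and 6.45%, and the other GR sites in 87.1%, 48.5%, 28.9%, 15.8% and 8.40%. The intervals of the highest quintile did not overlap (77.0 to 85.1 and 85.5 to 88.6), and those of the other 4 did. Of 183 control-line sites without GR in the wild-type line, 6 (3.28%) overlapped a SUMO-2/3 site. SUMO-2/3 was not mapped in the control line in the samples used here, so the level of SUMO-2/3 at these places without transgenic GR was not measured.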

How the data were processed

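ChIP-seq peak lists of 4 wild-type-line libraries, with the control-line GR list as background, were analysed. Per the submitters' processing notes, CASAVA made the base calls and Bowtie 0.12.9 the alignment, on hg19. Which program called the peaks, and how, is not given in the sources used here. Every deposited peak, per the file headers, has a start, end, length, summit, tag count, fold enrichment (a ratio to background), an FDR in percent and a p column. The deposited p column, headed −log10, was treated as a score of unknown scale and not used. Deposited tag counts are whole and not normalized. All peaks of the 4 lists had at least 51 tags, a fold of at least 8.01 and an FDR of at most 9.96 percent. How the positions common to the 2 libraries of an antibody were made is not stated.

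Overlaps needed at least 1 bp, and summit distances an own peak length equal to end minus start plus 1. These, rank correlations, widths and gaps were computed with Python 3.11.15, numpy 2.4.6, pandas 2.3.3 and scipy 1.17.1. Site matching, overlap length, gaps of unmatched sites, summit distances and the partial rank correlation were checked on simulated data. The other values were not. Own peaks listed for several sites (128 and 424 sites in the GR libraries, 237 and 184 in the SUMO-2/3 libraries) were counted once in tag totals. Medians over libraries were compared by an exact two-sided permutation test. No count model was fitted, since tags were counted in peaks that differ between libraries. Named sites are the 5 best of each class by mean fold rank, which for co-bound sites joined the ranks in both lists. Also named are the 3 highest and 3 lowest tag ratios among co-bound pairs, and the 3 widest sites of each list. The sites, lists and tests were chosen with earlier results of these data known. Genes and motifs were not used here.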

Additional observations from a re-analysis of the deposited data

How the results depend on the processing

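Over 11 results, 52 alternative values were computed. By label, 26 of these were within a spread, 25 moved and 1 reversed direction. The spread differed between results, so the labels do not order the changes by size. For SUMO-2/3 minus GR width (108 bp), alternatives of 163 and 79 bp counted as within it. For the width of SUMO-2/3 sites with minus without GR (62 bp), alternatives of 69.5 and 77 bp counted as moved. The label counts therefore cannot decide which results are stable, and no conclusion is drawn from them. The share of GR sites with SUMO-2/3 (37.4%) was 34.1% with reciprocal overlap of 50%, 29.6% with centres within 200 bp, 39.5% with gaps up to 1000 bp, 25.4% with an FDR of at most 1 percent in both libraries, and 39.4% if own peaks may overlap. For SUMO-2/3 sites with GR (34.3%) these were 31.7%, 27.6%, 35.6%, 35.8% and 35.8%. The FDR limit left 7636 GR and 5342 SUMO-2/3 sites. Shares and gaps could not be recomputed without a replicate, because both libraries list the same positions. The median summit distance was 16 to 22 bp without a replicate, and 61 bp between centres of listed sites. The mean tag correlation (0.705) was 0.619 to 0.791 without a replicate, 0.590 per kb, 0.497 for fold, 0.597 given lengths and 0.478 with control-line GR tags. Width differences without a replicate, from own peaks, were 86 to 205 bp for GR sites with minus without SUMO-2/3, 69.5 to 77 bp for SUMO-2/3 sites with minus without GR, and 79 to 163 bp for SUMO-2/3 minus GR. Median gaps of unmatched GR and SUMO-2/3 sites were 51032 and 60795.5 bp when unmatched meant under 50% reciprocal overlap. Against the higher 50% of the other list they were 140057.5 and 121436 bp, with fewer sites to reach. The SUMO-2/3 gap was 61391 bp without chromosome 19. The median width at the highest minus the lowest quintile of the balance went, by tags per kb in place of tags, from 616 to 193 bp for SUMO-2/3 and from -143 to 41 bp for GR. Where no construction is named, the cause was not tested. Own peaks listed once, own peaks up to 10 bp longer, control-line summits and tags, partial correlations, the balance per kb, bridged gaps and leaving out chromosome 19 were added after seeing the data.

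With same-numbered libraries only (the replicate block), the median summit distance was 21 bp and the mean tag correlation 0.723. Same-numbered GR and SUMO-2/3 libraries deviated together with a Spearman correlation of 0.246 across co-bound pairs (Pearson 0.254, 0.135 per kb). With only 2 numbers and no label tying them, the libraries were not treated as paired.

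Summits were placed in 1250 of 4234 pairs, which limits the values by strength to as few as 23 pairs. The planned search for motifs and target genes was not run.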
